A study of Mus musculus with 20 samples.

Results

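The 10 genes described here encode the core of cytokine signalling through Janus kinases: the kinases Jak1, Jak2, Jak3 and Tyk2, the transcription factors Stat3, Stat5a and Stat5b, and the inhibitors Socs1, Socs3 and Cish. They were chosen by gene symbol from 21631 protein-coding genes on mouse chromosomes 1 to 19 and X. For each gene, the peaks of 12 libraries were taken that lay within 1 kb of either annotated end (end peaks), or inside the gene body and clear of both of those windows (inside peaks). An overlap of 1 bp was enough. KO only means an end peak in the KO library and none in the WT library of the same target, and WT only means the converse.

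The libraries came from hematopoietic stem cells (HSC) that were sorted from adult mice after treatment with poly(I:C), a synthetic double-stranded RNA that induces interferon. KO mice were Mx1-Cre+/-;mTORflox/flox. KO MycHet mice carried, beside these alleles, c-Myc+/flox. WT mice were Mx1-Cre-/-;mTORflox/flox, so they carried the same floxed alleles without Cre. All 3 groups received poly(I:C), and the Mx1 promoter that drives Cre responds to interferon in blood cells and in other tissues. ChIP-seq had 1 KO and 1 WT library for each of 3 targets: H3K27ac, which marks active promoters and enhancers, H3K4me3, which marks promoters in use, and MYC, a transcription factor. ATAC-seq, which maps open chromatin, had 2 KO, 2 KO MycHet and 2 WT libraries of 50000 cells each. The labels do not say whether cells of several mice were pooled. The 8 RNA-seq samples of the series, 4 KO and 4 WT, were not analysed here, so nothing below speaks of expression.

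Cytokine receptors without kinase activity of their own bind Janus kinases on their inner side. A bound cytokine brings the kinases together, the kinases phosphorylate the receptor and the STAT proteins, and STAT dimers move to the nucleus and bind DNA. SOCS proteins are encoded by STAT target genes and block the kinases or the receptors, which closes a feedback loop. In HSC this pathway is best known for thrombopoietin, which signals through Jak2 and Stat5, and for interferons, which signal through Jak1, Jak2 and Tyk2.

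The targeted gene was read first, as a check of the labels. At the lower-coordinate end of Mtor a peak was present in 0 of 5 KO libraries, 0 of 2 KO MycHet libraries and 5 of 5 WT libraries. The upper end had a peak in 3 of 5 KO, 2 of 2 KO MycHet and 2 of 5 WT libraries. The labels do not say which part of the gene is deleted. The lists differed in length. They held 20036 KO and 10078 WT peaks for H3K27ac, with median widths of 1237 and 333 bp, and 22086 KO and 8774 WT peaks for MYC. The H3K4me3 lists held 16019 KO and 15089 WT peaks. ATAC-seq gave 19174 and 72149 peaks in KO libraries 1 and 2, 47214 and 53722 in the KO MycHet libraries, and 17303 and 66531 in the WT libraries. The first KO and the first WT list were thus the short ones. Of 14 HSC markers, 9 had an H3K4me3 end peak in KO and 9 in WT, and Gata2, Meis1, Hoxa9 and Tal1 had none in either list. Of 7 B cell markers, 4 had an H3K27ac end peak in KO and 0 in WT, while Ms4a1, Pax5 and Igll1 had no H3K4me3 end peak in either. H3K27ac end peaks lay at 6 of the HSC markers, 3 of 5 megakaryocyte markers, 2 of 7 erythroid markers and 1 of 9 myeloid markers in KO, and at 2, 0, 0 and 1 of them in WT. Of 8 T and NK cell markers, 1 had such a peak in KO and 1 in WT, and of 6 stromal and endothelial markers, 1 in KO and 0 in WT. Over all genes, 39.6% had an H3K27ac end peak in KO and 14.6% in WT. The part of other cell types in the peaks described below was not tested.

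The 4 promoters shown next are those of the 10 genes in which a searched motif was found. Each runs from 250 bases before to 50 bases after the start listed by RefSeq, on the GRCm38.p6 assembly (also called mm10). Letters run 5′ to 3′ along the gene's strand, and capitals mark the motif matches. Both strands were searched.
Cish promoter, chr9:107296409-107296708, plus strand: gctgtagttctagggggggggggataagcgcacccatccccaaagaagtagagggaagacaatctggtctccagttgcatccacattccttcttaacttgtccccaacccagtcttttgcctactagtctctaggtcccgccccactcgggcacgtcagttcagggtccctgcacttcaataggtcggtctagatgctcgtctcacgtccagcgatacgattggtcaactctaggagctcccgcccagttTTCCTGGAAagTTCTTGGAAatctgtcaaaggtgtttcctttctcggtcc
Socs3 promoter, chr11:117969317-117969616, minus strand: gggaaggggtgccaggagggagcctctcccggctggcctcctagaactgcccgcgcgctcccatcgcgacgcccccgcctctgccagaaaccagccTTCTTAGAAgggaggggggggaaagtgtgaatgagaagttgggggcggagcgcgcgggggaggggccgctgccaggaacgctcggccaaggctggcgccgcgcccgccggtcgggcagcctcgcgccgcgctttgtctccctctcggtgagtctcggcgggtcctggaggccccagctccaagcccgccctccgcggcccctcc
Socs1 promoter, chr16:10785487-10785786, minus strand: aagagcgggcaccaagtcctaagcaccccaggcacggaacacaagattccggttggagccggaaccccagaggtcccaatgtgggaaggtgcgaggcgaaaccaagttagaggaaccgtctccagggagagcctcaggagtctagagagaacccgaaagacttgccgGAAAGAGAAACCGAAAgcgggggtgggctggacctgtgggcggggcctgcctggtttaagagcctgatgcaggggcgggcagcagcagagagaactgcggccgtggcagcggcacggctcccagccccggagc
Jak1 promoter, chr4:101265174-101265473, minus strand: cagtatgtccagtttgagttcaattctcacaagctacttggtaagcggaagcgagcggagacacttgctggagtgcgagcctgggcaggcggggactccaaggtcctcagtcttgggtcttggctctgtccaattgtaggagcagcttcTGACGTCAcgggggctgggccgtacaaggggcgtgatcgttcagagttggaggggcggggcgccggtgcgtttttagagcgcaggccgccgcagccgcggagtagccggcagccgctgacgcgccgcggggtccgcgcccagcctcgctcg
The STAT motif TTCNNNGAA, the pair of palindromic arms that STAT dimers bind, occurred at Cish and at Socs3 and at no other promoter of the 10 genes. Cish held 2 matches, TTCCTGGAA at the listed start itself and TTCTTGGAA 11 bases farther in. Socs3 held 1, TTCTTAGAA, whose first base lay at position -154 from its listed start. Over 21045 promoters of the same length, 7.76% held at least 1 match and 0.409% held 2 or more. The MYC motif CACGTG was in none of the 12 listed promoters of these genes, against 7.91% of all promoters. The other 2 motifs were added after the sequences had been seen. The interferon-response motif (GAAA, any 2 bases, then GAAA) occurred at Socs1 as 2 overlapping matches that share 4 bases, and 3.38% of all promoters held at least 1. The cyclic-AMP response motif TGACGTCA occurred once at Jak1, at position -101, and in 2.26% of all promoters. The STAT matches at Cish lay under the KO H3K27ac peak, both H3K4me3 peaks and the ATAC-seq peaks of every library but KO 1. The match at Socs3 lay under both H3K4me3 peaks and under all 6 ATAC-seq peaks, and under no H3K27ac peak. A match is a stretch of letters and not evidence that a factor was bound there.

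Scores are the deposited scores of the authors' peak caller, whose scale is not stated and whose lowest value was 50. They rank peaks within a list and were not compared between lists.

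All 10 genes carried an H3K4me3 end peak in the KO list and in the WT list, against 54.3% of all genes in KO, 52.9% in WT and 51.4% in both. None was KO only or WT only for this mark, as were 2.94% and 1.52% of all genes. H3K27ac was less uniform. In the KO list 7 of the 10 genes had an end peak (39.6% of all genes), and in the WT list 3 had one (14.6%). Jak1, Stat5a, Stat5b and Cish were KO only, as were 25.8% of all genes, and none was WT only, as were 0.767%. Jak3, Stat3 and Socs1 had an end peak in both lists, and Jak2, Tyk2 and Socs3 in neither. Since the 10 genes all had H3K4me3, the closer background is the 11109 genes with an H3K4me3 end peak in both lists. Of those, 72.5% had H3K27ac in KO, 26.6% in WT and 46.7% in KO only, so the shares of 7, 3 and 4 of 10 are near what genes with this mark showed in general. When each H3K27ac list was reduced to its 10078 highest-scoring peaks, Jak1, Stat5a, Stat5b and Cish remained KO only, and Socs1 had a WT peak only. This reduction matched the number of peaks and not their widths, and the full lists had median widths of 1237 bp in KO and 333 bp in WT. The share of all genes that were KO only at this setting is not given here. MYC end peaks lay at Stat3 and Cish in KO (22.3% of all genes) and at Stat3 in WT (10.3%), so Stat3 had MYC in both, as did 7.93%. Cish was the 1 KO-only gene for MYC, a class that held 14.4% of all genes and 24.8% of those with H3K4me3 in both lists. With 1 library per genotype and target, none of these differences has a replicate check, and no test was made. The sorted cells were measured in bulk, so a peak present in a part of the cells and a weaker peak in all of them cannot be told apart.

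**Figure D1:**
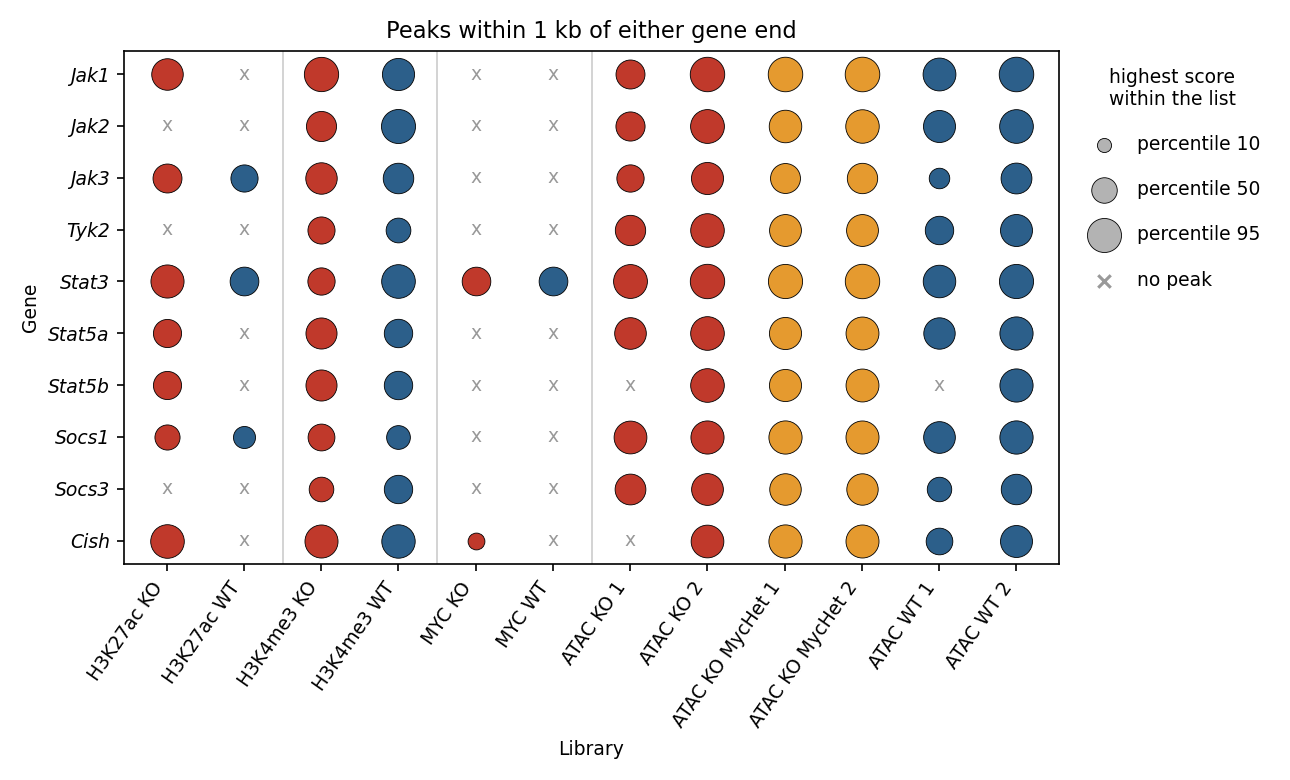
Peaks within 1 kb of either end of the 10 genes (rows) in the 12 libraries (columns, red KO, orange KO MycHet, blue WT). The area of a circle grows with the percentile of the gene's highest deposited score within that library's own list, and a cross marks no peak. H3K4me3 has a circle in every row, H3K27ac has 7 circles in KO and 3 in WT, and MYC has circles at Stat3 and, in KO, at Cish.

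Most of the 10 genes had open chromatin at an end in every genotype. An ATAC-seq end peak was present in all 6 libraries at 8 of the 10 genes, against 40% of all genes. The exceptions were Stat5b and Cish, and their gaps fell in the short lists. Both KO libraries had one at 8 genes (44.6% of all genes), both KO MycHet libraries at all 10 (59.9%) and both WT libraries at 9 (44.6%). The 10 genes all had H3K4me3 in both lists, and ATAC-seq shares among genes with that mark are not given here. None of the 10 genes was open at an end in both libraries of one genotype and in neither of another. Such patterns were so rare among all genes that their absence here says little about these 10. Both KO and neither WT library were open at 0.0277% of all genes, and both WT and neither KO at 0.0231%. Both KO MycHet and neither WT were open at 0.361%, and both WT and neither KO MycHet at 0.0693%. Both KO MycHet and neither KO were open at 0.411%, and both KO and neither KO MycHet at 0.0416%. At Cish the KO 1 library alone lacked a peak, a pattern seen at 4.47% of all genes. An exact permutation test (two-sided) of 2 against 2 libraries cannot give a p under 0.333. The number of ATAC-seq peaks per gene, compared for each of the 10 genes and 3 pairs of genotypes, gave unadjusted exact permutation p-values of 0.667 or 1.

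The H3K4me3 end peak was wider in the KO list at all 10 genes, and this was also so at 92.2% of the 11109 genes with the mark in both lists. The median ratio of KO to WT width was 1.29 over the 10 genes and 1.22 over all 11109. Median widths were 4171 bp in KO and 2985 bp in WT for the 10 genes, against 3287 bp in KO and 2662 bp in WT for all. The spread among the 10 genes was large. Jak2 had a peak of 5648 bp in KO and 2980 bp in WT, a ratio of 1.90. Socs3 had 5743 bp in KO and 3069 bp in WT, a ratio of 1.87. Socs1 followed with 4745 bp in KO and 2805 bp in WT, a ratio of 1.69. Stat3 had 5479 bp in KO and 3927 bp in WT, and Jak1 had nearly equal widths of 3652 bp in KO and 3593 bp in WT. A peak of at least 5 kb, a limit chosen after the widths were seen, stood at Jak2, Stat3 and Socs3 in KO (7.15% of all genes) and at none of the 10 genes in WT (2.97%). Such a peak in KO and a narrower one in WT was found at 8.92% of genes with the mark in both lists. Stat5a and Stat5b share a single peak between them, so the 10 genes rest on 9 peaks.

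**Figure D2:**
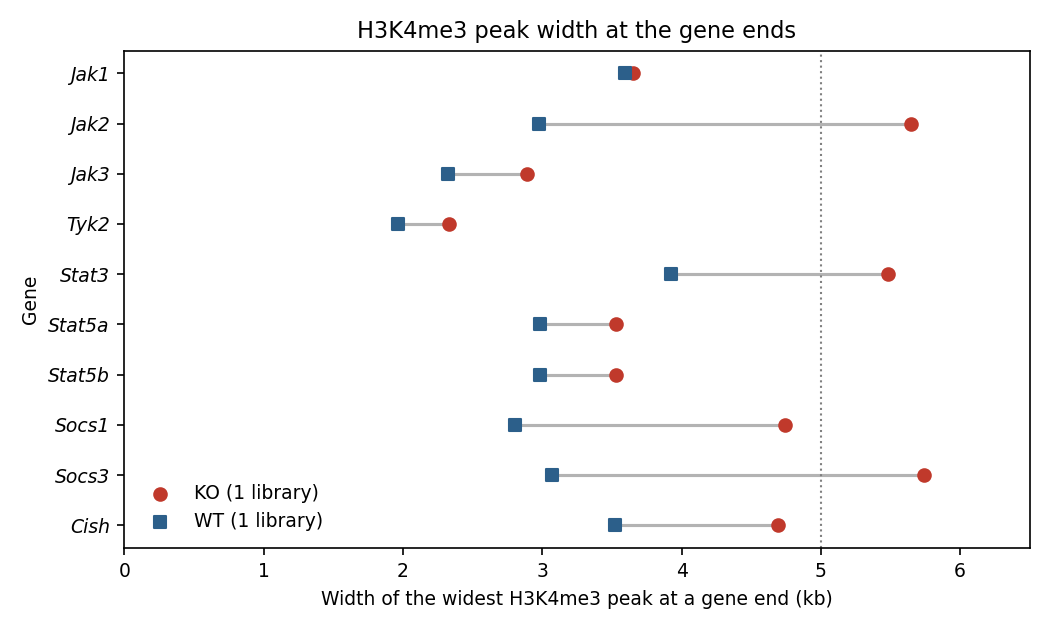
Width in kb of the widest H3K4me3 peak within 1 kb of an end of each gene, in the KO library (red circle) and the WT library (blue square), 1 library each, so without error bars. The dotted line marks 5 kb. The KO circle lies to the right in every row, by most at Jak2, Socs1 and Socs3, and almost on the WT square at Jak1.

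Among the kinases, Jak1 serves interferon and interleukin-6 family receptors. It spans 113 kb on the minus strand (chr4:101151974-101265282). Its KO H3K27ac peak covered the listed start (chr4:101264104-101265826, 1723 bp) with a score of 227, above 80.4% of the KO list, and the WT list had no peak at either end. Inside the gene each list held 1 H3K27ac peak, at different sites. The KO peak began at position 101159030 with a score of 109, and the WT peak at position 101172163 with a score of 71.6. No MYC peak lay at Jak1 in either list. Its start was open in all 6 libraries, with scores of 116 and 1116 in KO, 924 and 1045 in KO MycHet and 224 and 1278 in WT.

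Jak2, the kinase of the erythropoietin receptor, spans 61.3 kb on the plus strand (chr19:29251803-29313095). It had no H3K27ac at its ends in either list, yet 2 H3K27ac peaks inside the gene in KO and 0 in WT. The first KO peak (chr19:29255695-29257036) had a score of 70.2 and lay 4.56 kb from the listed start. A MYC peak lay within it in the KO list, with a score of 57.8, and in the WT list, with a score of 84.2, and none of the 6 ATAC-seq libraries had a peak there. The second KO peak (chr19:29268951-29272188) was 3238 bp wide with a score of 135 and was centred 18.8 kb from the start. It held a KO MYC peak with a score of 134, above 85.6% of that list, and no WT MYC peak. That site was open in KO 2 with a score of 493, in both KO MycHet libraries with scores of 373 and 379, and in WT 2 with a top score of 328, and it had no peak in the short lists of KO 1 and WT 1. At this second site the H3K27ac and MYC peaks of the KO lists therefore lay on chromatin that was also open in WT 2.

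Jak3 binds the common gamma chain of the interleukin-2 receptor family and spans 14.2 kb (chr8:71676383-71690577). Its H3K27ac end peak was 1979 bp wide in KO, with a score of 156, and 389 bp wide in WT, with a score of 70.2. The KO peak covered the listed start, and the narrower WT peak lay just inside the gene. Jak3 had no inside peak in any of the 12 lists and no MYC peak.

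Tyk2, which serves type I interferon and interleukin-12 receptors, spans 27.3 kb on the minus strand (chr9:21104068-21131393). Like Jak2, it had no H3K27ac at its ends, but an inside peak in KO (chr9:21125796-21126759, score 72.3) and none in WT. A KO MYC peak lay within it, at a score of 51.6 that was above only 5.47% of the KO list. The site was open in KO 2 with a score of 136, in the KO MycHet libraries with scores of 52.3 and 86.5, and in WT 2 with a score of 132. Outside the window, 2349 bp below the lower end of Tyk2, the KO H3K27ac list held a peak with a score of 137, and the WT list held none within 2.5 kb of that end.

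Jak2 and Tyk2 were the 2 of 7 long genes (10 kb or more) with inside H3K27ac in KO only, a class of 17% of all 13890 genes of that length, and none had it in WT only (5.99%). For MYC, Tyk2 was KO only inside (21.3%) and Stat5a WT only (4.31%). No gene of the 7 had inside H3K4me3 in KO only, as had 2.93% of long genes. Jak2 and Tyk2 were also the 2 with an inside KO MYC peak that overlapped no WT MYC peak and lay on an H3K27ac peak that overlapped no WT peak. This class was defined after the peaks were seen and held 5.45% of long genes. With the same number of peaks from each list of a target, the site 18.8 kb into Jak2 kept its KO peaks of both kinds. Tyk2 had no inside H3K27ac or MYC peak left and so lost both KO-only calls. At that setting 6.42% of all long genes were KO only inside for H3K27ac and 9.03% for MYC.

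**Figure D3:**
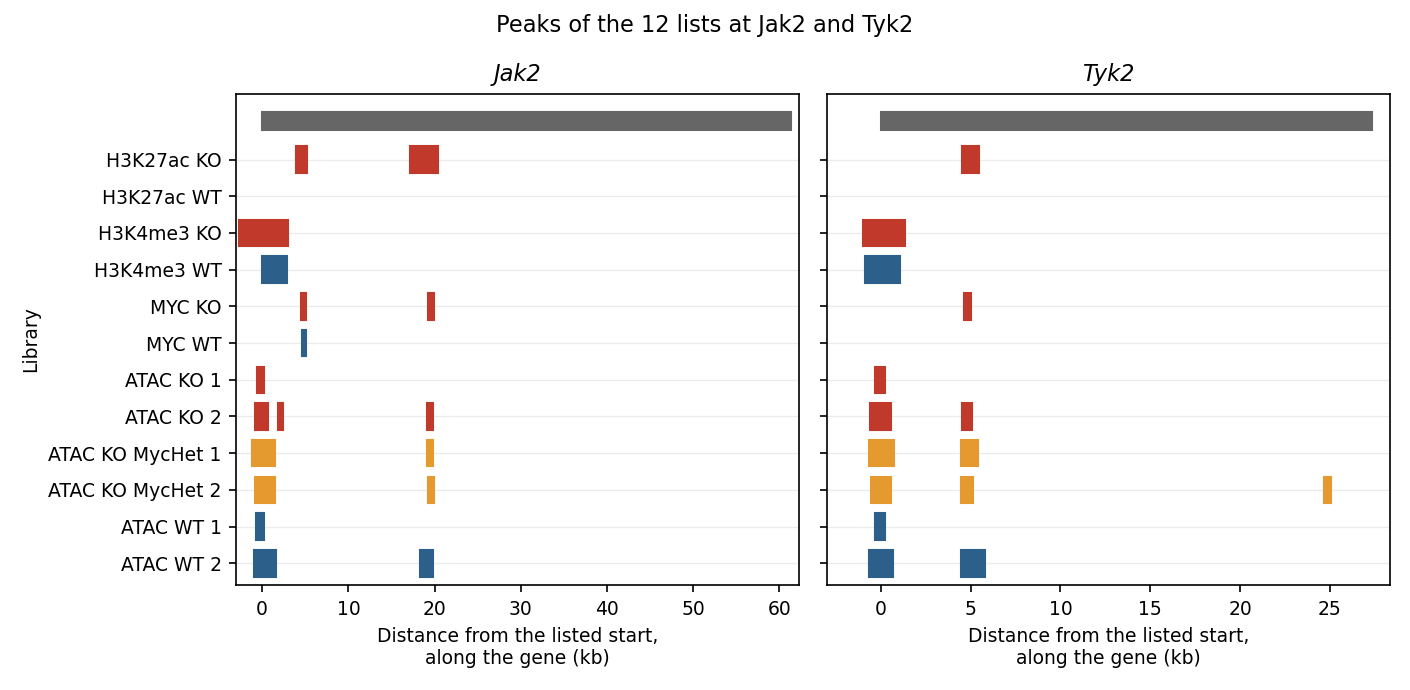
Peaks of the 12 lists at Jak2 (left) and Tyk2 (right), placed by distance in kb from the listed start along the gene; the grey bar is the annotated gene, and rows are libraries (red KO, orange KO MycHet, blue WT). Both genes show H3K4me3 and open chromatin at the start in all lists of these assays, and inside H3K27ac blocks in the KO row and none in the WT row. The KO MYC blocks at 19.6 kb in Jak2 and 4.84 kb in Tyk2 sit over ATAC-seq blocks of the KO 2, KO MycHet and WT 2 rows.

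The 3 STAT genes are neighbours on chromosome 11. Stat3, the factor downstream of interleukin-6 and granulocyte colony-stimulating factor, was the 1 gene of the 10 with an end peak in all 12 lists. It spans 52.8 kb on the minus strand (chr11:100886806-100939594). Its promoter is shown because it was the 1 promoter under MYC peaks of both genotypes, and it holds none of the motifs searched.
Stat3 promoter, chr11:100939491-100939790, minus strand: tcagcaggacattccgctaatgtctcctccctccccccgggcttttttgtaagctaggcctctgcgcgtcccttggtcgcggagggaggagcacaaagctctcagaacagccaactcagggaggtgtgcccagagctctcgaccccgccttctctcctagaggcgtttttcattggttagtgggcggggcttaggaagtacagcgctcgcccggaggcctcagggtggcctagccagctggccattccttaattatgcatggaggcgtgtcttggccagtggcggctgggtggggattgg
The MYC end peak of Stat3 was 1388 bp wide with a score of 88.5 in KO and 705 bp wide with a score of 81.6 in WT, and both covered the listed start. H3K27ac at this end was 2542 bp wide with a score of 309.7 in KO and 687 bp wide with a score of 75.2 in WT. The KO peak covered the listed start and the WT peak ended just downstream of it. Inside Stat3 both lists had H3K27ac at the same 2 sites. At the farther site, centred 47.5 kb from the start in KO and 47.4 kb in WT, the peak was 3525 bp wide in KO (score 270.1) and 1030 bp in WT (score 142, above 93.0% of the WT list), and this site was open in all 6 libraries. At the nearer site, 7.52 kb from the start in KO and 7.86 kb in WT, the peak was 2323 bp wide in KO (score 179.7) and 543 bp in WT (score 54.3), with H3K4me3 of both genotypes on it. MYC differed between the sites. The KO peak lay at the nearer one, with a score of 119, and the WT peak at the farther one, with a score of 56.5.

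Stat5a and Stat5b encode close relatives downstream of thrombopoietin, erythropoietin and interleukin-3, and their annotations lie next to each other. Stat5a spans 25.8 kb (chr11:100859351-100885169). The KO H3K27ac peak over its start (chr11:100859720-100861936, 2217 bp, score 139) had no WT counterpart. Because that peak began 716 bp beyond the end of Stat5b, it made both genes KO only, and the 4 KO-only genes thus rest on 3 peaks. The ATAC-seq peak over the start of Stat5a was present in all 6 libraries, with scores of 161 and 741 in KO, 403 and 525 in KO MycHet and 174 and 703 in WT. In KO 1 and WT 1 the same peak was narrower and began 1078 and 1010 bp beyond the end of Stat5b, just outside the window, which is why Stat5b counted as lacking an end peak there. In the other libraries the distance was 940 bp in KO 2, 667 and 817 bp in KO MycHet and 902 bp in WT 2. Inside Stat5a a WT MYC peak with a score of 57.2 stood alone, with no other mark or open site on it.

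Stat5b spans 78.3 kb on the minus strand (chr11:100780731-100859004), and its listed starts lie 8423 and 36434 bp inside the annotated end. Its own promoter peaks are therefore inside peaks here. At the first listed start, H3K4me3 was 5647 bp wide in KO and 4397 bp wide in WT, and the site was open in all 6 libraries. An H3K27ac peak lay just downstream of that start in KO, with a score of 89.6, and the WT list had none there. In all, Stat5b held 4 inside H3K27ac peaks in KO and 1 in WT, and 4 inside MYC peaks in KO and 2 in WT. In a region centred 9.90 kb from the first start, H3K27ac and MYC peaks of both genotypes adjoined or overlapped, with MYC scores of 74.9 in KO and 108 in WT. In a region centred 26.5 kb from the second start, MYC peaks scored 66.5 in KO and 67.8 in WT, the KO list alone had H3K27ac (score 57.0), and no ATAC-seq library had a peak.

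**Figure D4:**
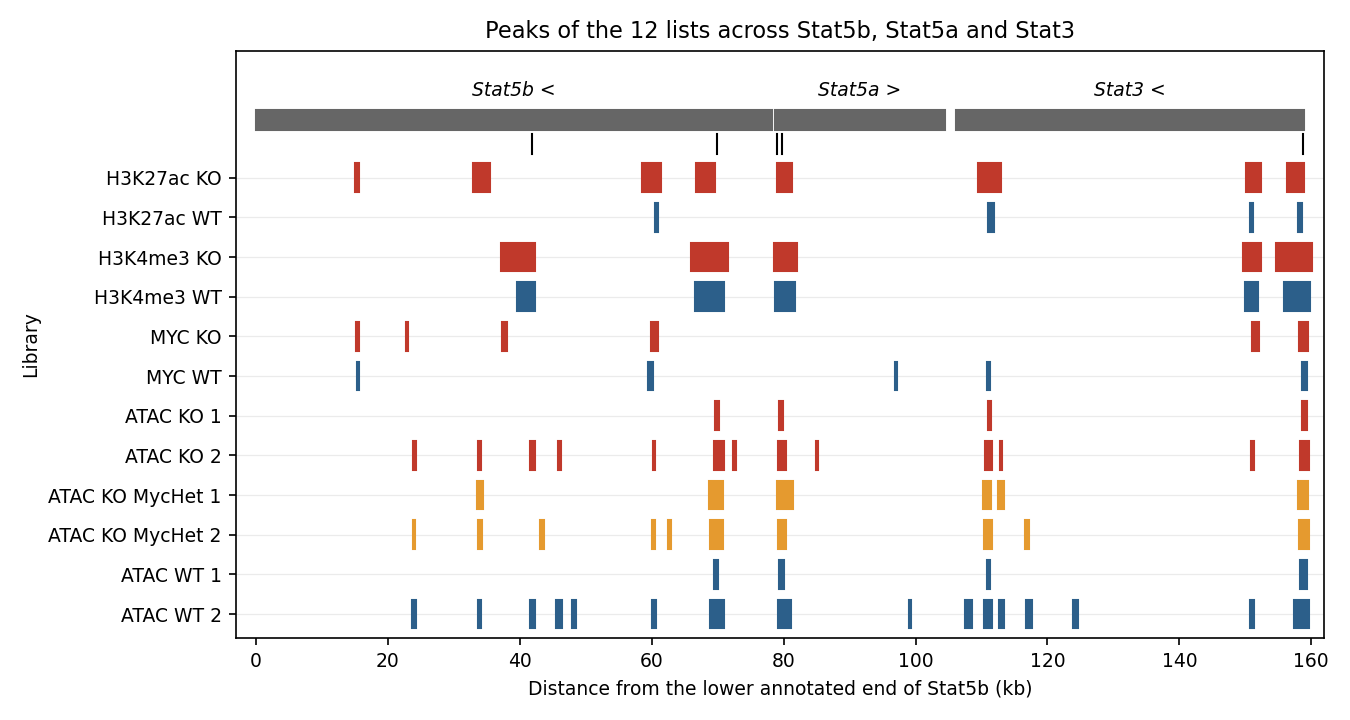
Peaks of the 12 lists across Stat5b, Stat5a and Stat3, placed by distance in kb from the lower annotated end of Stat5b; grey bars are the annotated genes, the arrowheads give the direction of transcription and short black lines the listed starts. Rows are libraries (red KO, orange KO MycHet, blue WT). H3K27ac blocks are wider in the KO row at the sites both rows share, the KO block at the start of Stat5a has no WT counterpart, and MYC blocks stand at the start of Stat3 in both rows.

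Among the inhibitors, Cish, a STAT5 target that dampens signalling at the receptor, had the highest-ranked H3K27ac end peak of the 10 genes in the KO list. That peak (chr9:107295275-107297775, 2501 bp) had a score of 349, above 92.3% of the list, and no WT peak lay at Cish. H3K4me3 was 4690 bp wide with a score of 586 in KO and 3520 bp wide with a score of 591 in WT. The KO list held 2 MYC peaks, with scores of 55.5 and 53.2, which were above 17.4% and 10.9% of the list, on either side of the promoter shown for Cish. Both were lost when each MYC list was reduced to its 8774 highest-scoring peaks. ATAC-seq gave no peak in KO 1 and a score of 531 in KO 2, scores of 543 and 543 in KO MycHet, and scores of 104 and 481 in WT. KO 1 was the 1 library of the 6 without a peak there, and KO 2 had one.

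Socs1, the inhibitor best known for restraining interferon signalling, is 1729 bp long (chr16:10783808-10785536), so both of its windows cover it. H3K27ac was 1156 bp wide in KO, with a score of 101, and reached the listed start. In WT it was 372 bp wide, with a score of 60.4, and lay 715 bp upstream of the gene. The site was open in every library, with scores of 197 and 617 in KO, 540.4 and 546 in KO MycHet and 183 and 721 in WT. The promoter shown above, with its overlapping interferon-response motifs, lay under the KO H3K27ac peak and not under the WT one.

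Socs3, which blocks the interleukin-6 receptor subunit gp130 and the kinases bound to it, is 4258 bp long (chr11:117966079-117970336). It had no H3K27ac peak and no MYC peak in any list, and was marked by H3K4me3 and open chromatin alone. The KO H3K4me3 peak reached across the whole gene (5743 bp, score 253), whereas the WT peak (3069 bp, score 382) covered its start and left the lower end free. Open chromatin at the start scored 143 and 406 in KO, 348 and 347 in KO MycHet and 87.3 and 326 in WT. Another open site stood in all 6 libraries between 1698 and 2246 bp below the lower end, outside the window.

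Inside the genes, the short ATAC-seq lists held the fewest open sites and the KO 2 and WT 2 lists the most. The 7 genes of 10 kb or more held 3 and 25 inside ATAC-seq peaks in KO, 15 and 20 in KO MycHet, and 3 and 29 in WT. Within number 1 KO minus WT was 0, and within number 2 it was -4, and the 2 KO libraries, like the 2 WT libraries, differed from each other by more than this. Jak1 held 1 and 11 peaks in KO, 9 and 9 in KO MycHet, and 1 and 12 in WT. Per 10 kb, Jak1 had 0.971 inside peaks in KO 2 and 1.06 in WT 2, a density that 9.09% of long genes reached in KO 2 and 5.08% in WT 2. Stat5b held 1 and 7 in KO, 2 and 6 in KO MycHet, and 1 and 7 in WT. Stat3 held 1 and 3 in KO, 2 and 2 in KO MycHet, and 1 and 6 in WT. The peaks of all 12 lists merged into 39 inside regions. Of these, 3 were open in all 6 ATAC-seq libraries, 1 each in Jak1, Stat3 and Stat5b, and 8 in the 4 long lists alone. No inside region was open in both KO libraries and neither WT library, or the reverse. A site in Jak1 (chr4:101167594-101168816) was open in both KO MycHet libraries and neither KO library, and it was also open in WT 2. H3K27ac marked 7 inside regions in KO only, 1 in WT only and 3 in both. MYC marked 5 regions in KO only, 2 in WT only and 3 in both. The KO list was the longer one for both targets, and the same shares over inside regions of all long genes are not given here. Of the 5 KO-only MYC regions, 4 held an ATAC-seq peak of at least 1 library. One of these lay in Stat5b, where the KO MYC peak itself (chr11:100818024-100818712) overlapped no ATAC-seq peak and was joined to the open site by a wide H3K4me3 peak. Counted as genes, 5 of the 7 had inside H3K27ac in KO (28.6% of long genes) and 3 in WT (17.6%), and 4 had inside MYC in KO (33.5%) and 4 in WT (16.5%). Counted as peaks, there were 10 inside H3K27ac peaks in KO and 4 in WT, and 8 inside MYC peaks in KO and 5 in WT. With the same number of peaks from each list of a target, these became 5 H3K27ac peaks in KO and 4 in WT. MYC peaks became 3 in KO and 5 in WT, so the direction for MYC turned. At that setting 14.1% of all long genes had inside H3K27ac in KO and 17.6% in WT. Inside MYC was then found at 17.3% of them in KO and 16.5% in WT.

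**Figure D5:**
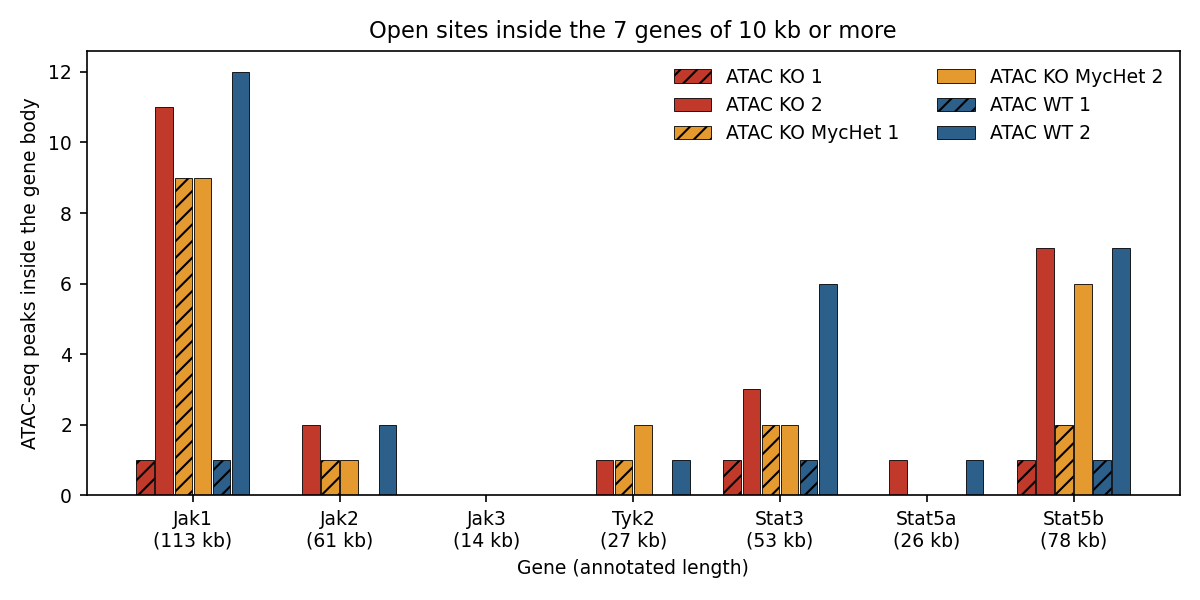
Number of ATAC-seq peaks inside the 7 genes of 10 kb or more, with a bar for each library (red KO, orange KO MycHet, blue WT, hatched for library 1 of each genotype). The hatched KO and WT bars stay at 0 or 1 and the plain KO and WT bars reach 11 and 12 at Jak1, and the genotypes overlap at every gene.

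The wider pathway was described with 79 other genes in 6 lists: STATs, SOCS box genes, other negative regulators, receptors coupled to Janus kinases, adaptors and signal partners, and STAT target genes. An H3K27ac end peak was present at 52 of the 79 in KO and at 16 in WT. Of the 79 genes, 38 (48.1%) were KO only, against 25.8% of all genes, and 2 were WT only. Among the 58 with H3K4me3 in both lists, 34 (58.6%) were KO only, against 46.7% of all genes with that mark. SOCS box genes were KO only at 4 of 5, led by Socs6 (score 284), and other negative regulators at 9 of 13. The highest among these regulators were the phosphatase genes Ptpn6 (305) and Ptpn11 (274), of which Ptpn11 is also known to relay growth signals, and the STAT inhibitor gene Pias2 (282). Receptors were KO only at 11 of 28, with Il2rg (225), the common gamma chain, Il6ra (224) and Ifnar2 (203), a subunit of the type I interferon receptor. STAT target genes were KO only at 7 of 18, with the kinase genes Pim2 (323) and Pim3 (289), and WT only at Junb (57.9) and Cdkn1a (56.4). Of the adaptors 5 of 11 were KO only, led by Irf9 (229), a transcription factor downstream of interferon. In the list of other STATs, Stat2 was KO only, with a score of 150.3.

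MYC was present at an end of 25 of the 79 genes in KO and 14 in WT. Of the 79, 16 (20.3%) were KO only, against 14.4% of all genes, and 5 were WT only, against 2.35%. Among the 58 pathway genes with H3K4me3 in both lists, 14 (24.1%) were KO only for MYC, close to the 24.8% of all genes with that mark. The KO-only MYC peaks with the highest scores were at Ptpn11 (122), the kinase gene Pim1 (113), the receptor gene Csf2rb2 (109), Pim3 (105) and Irf9 (102). WT-only MYC peaks lay, among others, at Socs5 (81.7), Pias1 (54.95), Gab2 (51.7) and Bcl2l1 (50.5). None of the 79 genes was open at an end in both KO and neither WT library, or the reverse. These patterns held only 0.0277% and 0.0231% of all genes, so their absence says little about the pathway.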

How the data were processed

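Sorted mouse HSC were profiled by ChIP-seq and ATAC-seq. The authors deposited 1 peak list per library, with a position and a peak caller score for each peak; peak names have the form MACS gives. Per the submitters' processing notes, the build was mm10, and CASAVA was used. The aligner, the settings and version of the peak caller and any input control were not given in the sources used here. No list holds read counts, so depth is unknown, and deeper sequencing could lengthen a list.

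Chromosome Y was left out, and positions are written 1-based. Gene ends came from a RefSeq table of GRCm38.p6, and starts and strands from its promoter table, which matched all 10 genes. Overlaps were counted in Python 3.11.15 with pandas 2.3.3 and scipy 1.17.1, and tested on simulated peaks. Groups came from sample titles and genotypes. Alternatives changed the window, the overlap rule, the score minimum, the number of peaks per list, the end used and the ATAC-seq replicates. Named genes were the 10 genes, Mtor and, per pathway list and for H3K27ac and MYC, the highest-scoring genes, at most 3 KO only and 2 WT only. The text gives some of these, and the results of some genes are not reported here. The 10 genes and the lists were chosen with earlier results of these data known.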

Additional observations from a re-analysis of the deposited data

How the results depend on the processing

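Of 100 values recomputed under an alternative, 74 kept within 1.5 times the value reported or within the spread between replicates, and 26 did not. When the centre of a peak had to lie in the window, genes with an H3K27ac end peak numbered 4 in KO, and genes with an H3K4me3 end peak 4 in KO and 5 in WT. Inside H3K4me3 peaks then numbered 8 in KO and 7 in WT, because wide promoter peaks have their centre inside the gene. With a score of 100 or more required, no gene had an H3K27ac end peak in WT (0) or a MYC end peak in KO (0) or WT (0). Inside peaks then numbered 5 in KO and 1 in WT for H3K27ac and 2 in KO and 1 in WT for MYC. ATAC-seq inside peaks averaged 7 in KO, 8 in KO MycHet and 8 in WT, against 14, 17.5 and 16 without the minimum. This minimum made Jak3, Stat3 and Socs1 KO only for H3K27ac as well, 7 genes in all. The median H3K27ac score was 104 in the KO list and 66.2 in the WT list, so the minimum removed a larger share of the WT list. The share of all genes that were KO only with this minimum is not given here. With the same number of peaks from every list of a target, 1 gene had a MYC end peak in KO. Inside peaks then numbered 5 in KO and 4 in WT for H3K27ac, and 3 in KO and 5 in WT for MYC, so KO no longer exceeded WT for MYC, and ATAC-seq inside peaks averaged 2.5 in KO, 2.5 in KO MycHet and 3 in WT. A window of 2.5 kb added Tyk2 to the KO-only H3K27ac genes, and one of 0.5 kb put Socs1 in place of Stat5b. When the peak centre had to lie in the window, only Jak1 and Cish stayed KO only for H3K27ac. Stat3 then became WT only, and Stat5a and Stat5b had no H3K27ac end peak in either list.

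Leaving out 1 ATAC-seq replicate number gave 3 to 25 inside peaks in KO and 3 to 29 in WT. Genes open in all libraries of a genotype and none of another stayed at 0 without replicate 1 and counted 2 without replicate 2. Both counts were Cish, closed in KO 1 and open in KO MycHet 1 and WT 1, once for each of those pairs of genotypes. The labels tie the numbers 1 and 2 to no shared animal or day, so the samples share only a number. Taken as a replicate block, KO minus WT inside ATAC-seq peaks was 0 within number 1 and -4 within number 2, against -2 for the means.

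The lists carry no depth, so absence of a peak means only that none passed the authors' threshold, and 1 ChIP-seq library per genotype gives no error.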

Other observations

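H3K4me3 end peaks at the pathway genes differed between the lists in the direction opposite to H3K27ac. Of the 79 genes, 58 had one in KO and 66 in WT, 0 were KO only and 8 (10.1%) were WT only, against 2.94% and 1.52% of all genes. The 8 were Il7r, Il21r, Pim1, Bcl6, Ccnd2, Ccnd3, Gfi1 and Sos1, and 5 of them are among the 18 STAT target genes. They were named after their values had been seen. At Pim1, a kinase gene induced by STAT5, the KO list had no such peak, and the WT peak spanned 8069 bp with a score of 124, above 22.9% of the WT list. The same gene had H3K27ac with a score of 425 in KO and 132 in WT, above 95.9% of the KO list and 91.6% of the WT list. Pim1 also had a MYC peak in KO with a score of 113, and open chromatin in all 6 ATAC-seq libraries. At Ccnd2, which encodes a D-type cyclin, KO had H3K27ac with a score of 139.8 where WT had none, and the H3K4me3 peak, present in WT alone, spanned 8018 bp with a score of 67.3. Bcl6 (4133 bp), Ccnd3 (5629 bp) and Gfi1 (4958 bp) also had wide WT peaks, which scored above 38.2%, 15.7% and 21.4% of the WT list. The WT peaks of Ccnd2 and Il7r were above only 8.00% and 2.98% of that list, and those of Il21r and Sos1 above 47.5% and 64.8%. At Il21r the WT peak overlapped a KO peak that lay outside the window. Over all genes, 329 were WT only for H3K4me3, with a median WT width of 1867 bp, and 27.1% of them had a WT peak of 5 kb or more. Of the 642 genes with a WT end peak of 5 kb or more, 89 (13.9%) had no KO end peak. These values come from 1 library per genotype, and the cause was not tested.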
